A study of Mus musculus with 74 samples.

Results

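The cytotoxic lymphocyte genes and granzymes described here are 10 genes of killer lymphocytes: Gzma, Gzmb, Gzmk, Prf1, Nkg7, Cd8a, Klrd1, Klrk1, Ccl5 and Eomes. They were picked by gene symbol, not by a threshold on their values, from 22079 symbols that carried values in at least 1 of 5 tables of mammary tumor and lung metastasis expression. Of the 10 genes, 9 had a row in at least 1 table, and Gzmk had none. Over the 50 pairs of gene and table, 27 had values and 23 had no row. A missing row says only that the gene is not listed in that table, and no level was taken from it. In the Her2, C3Tag and AKR-named tables, a search by Ensembl identifier found the same rows as the search by symbol.

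RNA was sequenced from primary mammary tumors (PT) and lung metastases (Lung met) of 6 mouse models, 74 samples in all, to ask how far expression in metastases departs from that in the primary tumor. In the MMTV-Her2 and MMTV-Myc models a mammary tumor virus promoter drives the oncogene mainly in mammary epithelium, and in C3TAg mice the C3(1) promoter drives the large T antigen, all on an FVB background. The PyMT-F1 models came from FVB males carrying MMTV-PyMT and females of AKR/J, BALB or SEA/GN, so every F1 animal had an FVB father and carried PyMT. The titles give 6 PT and 6 Lung met samples per model, apart from 7 and 7 in C3Tag. All groups were female and carried an oncogene, and no tumor-free mammary gland or lung was among the groups. Tumors of PyMT animals were taken at or near the humane endpoint. In Her2, C3Tag and Myc, animals with a single lesion had it resected early and were then aged. The methods describe combining all primary tumors of 1 animal. The values below are the authors' group means of normalized counts, with no value of a single sample, so the spread between animals is unknown and no difference could be tested. The Myc table was not analysed here.

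Labels limit what the F1 values stand for. The title and the genotype label name different strains for 23 of the 36 F1 samples, so which samples entered each F1 table is not settled. For 16 of the 74 samples the source name gives another tissue than the tissue label, which bears on which samples were averaged as PT or Lung met. The titles, which match the tissue label, were followed. The table deposited under AKR has in addition an open strain, because its fold changes for the genes looked up equal those the study lists for its BL6 cross. It is called the AKR-named table below. In the BALB F1 and SEAGN F1 tables, 2671 and 2684 rows with values have no symbol, and a missing gene could be among them. Which of its PT samples entered the C3Tag table is not settled either.

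Killer lymphocytes, chiefly natural killer (NK) cells and CD8 T cells, store perforin and granzymes in secretory granules. On contact with a target cell the granules are released, perforin opens the target's membrane, and the granzymes, which are serine proteases, enter and start cell death. Whether the cell fires is set by surface receptors, of which NKG2D recognises stress ligands on tumor cells and CD94 pairs with NKG2 proteins to read MHC class Ib molecules. In bulk tissue such as this, fewer killer cells and less RNA per killer cell cannot be told apart.

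The 10 genes lie on 7 chromosomes in the GENCODE M21 annotation of GRCm38, and all are protein coding. Gzma (chr13:113093825-113100981) and Gzmk (chr13:113171608-113225908) are neighbours on the minus strand, 70.6 kb apart. Klrd1 (chr6:129591782-129598775, plus strand) and Klrk1 (chr6:129610323-129623864, minus strand) are 11.5 kb apart in the cluster of NK receptor genes, and Cd8a (chr6:71373427-71379173) is on the same chromosome. Gzmb is at chr14:56258838-56262260, Prf1 at chr10:61297833-61304680, Nkg7 at chr7:43437073-43438249, Ccl5 at chr11:83525778-83530518 and Eomes at chr9:118478212-118486132.

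The bases just before the start are shown for Gzma and Gzmb, whose ratios went opposite ways in the AKR-named table, for Nkg7 and Klrk1, which were higher there in Lung met, and for Cd8a, which was lower. They are RefSeq sequence of GRCm38.p6, 5′ to 3′ on the gene's strand, and end at the RefSeq start or where the GENCODE gene begins. Capitals mark matches on either strand to TGTGGT, the core bound by Runx factors.
Gzma, chr13:113100982-113101231, minus strand: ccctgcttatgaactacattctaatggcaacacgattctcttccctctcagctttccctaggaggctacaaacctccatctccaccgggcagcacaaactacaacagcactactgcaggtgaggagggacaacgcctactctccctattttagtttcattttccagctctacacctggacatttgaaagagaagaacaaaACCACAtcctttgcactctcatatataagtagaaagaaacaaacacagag
Gzmb, chr14:56262335-56262584, minus strand: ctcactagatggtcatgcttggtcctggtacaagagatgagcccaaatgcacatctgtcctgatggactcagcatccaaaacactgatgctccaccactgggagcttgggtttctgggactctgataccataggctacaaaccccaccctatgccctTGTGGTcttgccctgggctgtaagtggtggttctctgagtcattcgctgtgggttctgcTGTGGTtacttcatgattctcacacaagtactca
Nkg7, chr7:43436888-43437072, plus strand: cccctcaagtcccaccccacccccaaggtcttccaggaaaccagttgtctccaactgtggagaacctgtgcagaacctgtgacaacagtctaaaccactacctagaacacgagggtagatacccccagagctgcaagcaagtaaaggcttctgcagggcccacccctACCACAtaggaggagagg
Klrk1, chr6:129623865-129624114, minus strand: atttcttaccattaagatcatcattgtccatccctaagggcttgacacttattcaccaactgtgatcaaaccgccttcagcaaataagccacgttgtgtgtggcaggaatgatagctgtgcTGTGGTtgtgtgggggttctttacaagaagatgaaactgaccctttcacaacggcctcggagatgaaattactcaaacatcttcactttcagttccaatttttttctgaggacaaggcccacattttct
Cd8a, chr6:71373177-71373426, plus strand: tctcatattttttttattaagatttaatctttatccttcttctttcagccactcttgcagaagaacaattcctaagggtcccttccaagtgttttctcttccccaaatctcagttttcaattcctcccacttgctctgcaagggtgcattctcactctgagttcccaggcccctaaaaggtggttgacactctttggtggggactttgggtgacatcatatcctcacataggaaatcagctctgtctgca
Of the 10 genes, 8 had a promoter entry in the RefSeq table, all but Klrd1 and Ccl5. Searched over the 250 bases before the start on both strands, TGTGGT was found in 5 of these 8 (Gzma, Gzmb, Prf1, Nkg7 and Klrk1) and in 14% of all 32851 windows. Gzmb held 2 copies, ending 88 and 29 bases before its start. GGTGTG, the T-box core that Eomes and its relatives bind, was found in 2 of 8 (Gzmk and Nkg7) and in 16.3% of all windows, the Nkg7 match lying in bases not printed. TATAAA was found in 0 of 8 and in 12.4% of all windows. None of these matches shows that a factor is bound in these tissues.

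Among the granule proteins, the granzymes gave no common direction over the tables. Gzmb, the granzyme that cleaves after aspartate and activates caspases, had a group mean of 119 in PT and 71 in Lung met in Her2, a log2 ratio of Lung met over PT of -0.74. Its mean was 60.6 in PT and 46.7 in Lung met in the AKR-named table, a log2 ratio of -0.37. In both the metastasis mean was the lower, by less than 2-fold. BALB F1 gave 9.06 in PT and 16.7 in Lung met, a log2 ratio of 0.88. SEAGN F1 gave 6.66 in PT and 11 in Lung met, a log2 ratio of 0.73. In BALB F1 and SEAGN F1 the metastasis mean was the higher, at low levels. The mean of both tissues was 12.9 in BALB F1 and 8.85 in SEAGN F1, where the medians over all genes were 132 and 124. In Her2 and the AKR-named table it was 94.9 and 53.7, also well under the all-gene medians of 444 and 488. C3Tag had no row for Gzmb.

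Gzma, the tryptase-like granzyme of NK and T cells, had a row only in the AKR-named table. Its mean there was 19.7 in PT and 76.3 in Lung met, a 3.87-fold higher value in Lung met (log2 ratio 1.95). That was the highest log2 ratio of any of the 27 values, and 97.8% of the genes of that table had a lower one. So within the same table the 2 granzymes pointed apart, Gzma higher and Gzmb lower in Lung met. Gzmk, a neighbour of Gzma with trypsin-like activity, could not be followed in any of the 5 tables.

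Prf1, which encodes perforin, had a row in Her2 and C3Tag. Its mean was 8.28 in PT and 14.8 in Lung met in Her2, a log2 ratio of 0.84. In C3Tag it was 17.7 in PT and 21.4 in Lung met, a log2 ratio of 0.27. The mean of both tissues was 11.5 in Her2 and 19.5 in C3Tag, low beside the all-gene medians of 444 and 380. In Her2, therefore, the pore-forming protein and Gzmb differed in opposite directions, neither by as much as 2-fold. Nkg7, a granule membrane protein needed for efficient degranulation, had nearly equal means in Her2, 32.2 in PT and 32.3 in Lung met. It also differed little in C3Tag, with 10.9 in PT and 12.4 in Lung met (log2 ratio 0.18). In the AKR-named table it stood at 16.6 in PT and 48.9 in Lung met, 2.94-fold higher in Lung met (log2 ratio 1.56).

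**Figure D1:**
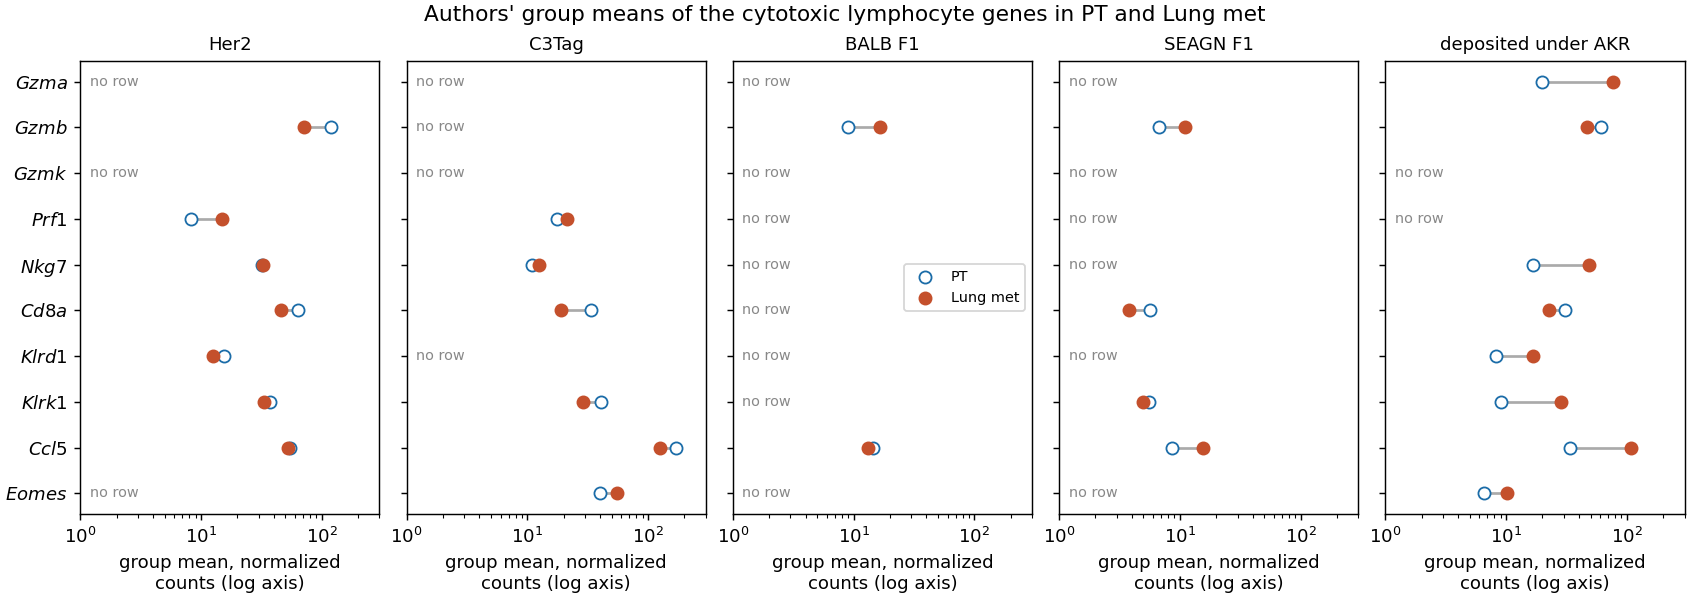
Authors' group mean of normalized counts (x axis, log scale) for each of the 10 genes (y axis) in PT (open circles) and Lung met (filled circles), 1 panel per table, with no error bars because only group means were analysed. Tables were normalized separately, so levels are to be compared within a panel; the long shifts toward Lung met for Gzma, Nkg7, Klrk1 and Ccl5 are all in the AKR-named panel.

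Of the receptors, Cd8a was the gene with the same direction in every table that listed it. Cd8a encodes the alpha chain of CD8, the coreceptor of killer T cells that some dendritic cells also carry. Its mean went from 62.9 in PT to 45.7 in Lung met in Her2 (log2 ratio -0.46) and from 33.8 to 18.9 in C3Tag (log2 ratio -0.84). In SEAGN F1 it was 5.67 in PT and 3.82 in Lung met (log2 ratio -0.57), and 30.6 and 22.6 in the AKR-named table (log2 ratio -0.44). Thus Cd8a was lower in Lung met in 4 of 4 tables, each time by less than 2-fold. Its partner Cd8b1, the CD8 beta chain, had log2 ratios of -0.40 in Her2 and -1.22 in C3Tag but 1.33 in the AKR-named table, where both chains differed in direction. Cd8b1 was named for the Her2 and AKR-named tables after its values were seen.

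Klrk1 encodes NKG2D, an activating receptor of NK and T cells. Its means in PT and Lung met were 37.4 and 33.3 in Her2 (log2 ratio -0.17), 40.7 and 29.1 in C3Tag (-0.48), and 5.53 and 4.97 in SEAGN F1 (-0.16). In the AKR-named table they were 9.06 and 28.3, a 3.13-fold higher value in Lung met (log2 ratio 1.64). Klrk1 was thus slightly lower in Lung met in 3 tables and higher only in the AKR-named table. Klrd1, which encodes CD94, followed its neighbour in sign. Its means were 15.4 in PT and 12.6 in Lung met in Her2 (log2 ratio -0.29) and 8.21 and 16.8 in the AKR-named table (log2 ratio 1.03).

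Ccl5, a chemokine that killer lymphocytes release and that draws other leukocytes, was the only gene of the 10 with values in all 5 tables. Its means in PT and Lung met were close in Her2, 54.5 and 52.2 (log2 ratio -0.06), and in BALB F1, 14.5 and 13.3 (log2 ratio -0.12). They were 169 and 126 in C3Tag, a log2 ratio of -0.42. SEAGN F1 had 8.65 in PT and 15.4 in Lung met, a log2 ratio of 0.84, and 33.5 and 107 were found in the AKR-named table, a log2 ratio of 1.68. Ccl5 was therefore lower in Lung met in 3 tables and higher in 2, and passed 2-fold in the AKR-named table alone.

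Eomes, a T-box transcription factor of NK cells and effector CD8 T cells, was higher in Lung met in both tables that listed it. Its means in PT and Lung met were 39.8 and 55.7 in C3Tag (log2 ratio 0.48) and 6.6 and 10.1 in the AKR-named table (log2 ratio 0.62).

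**Figure D2:**
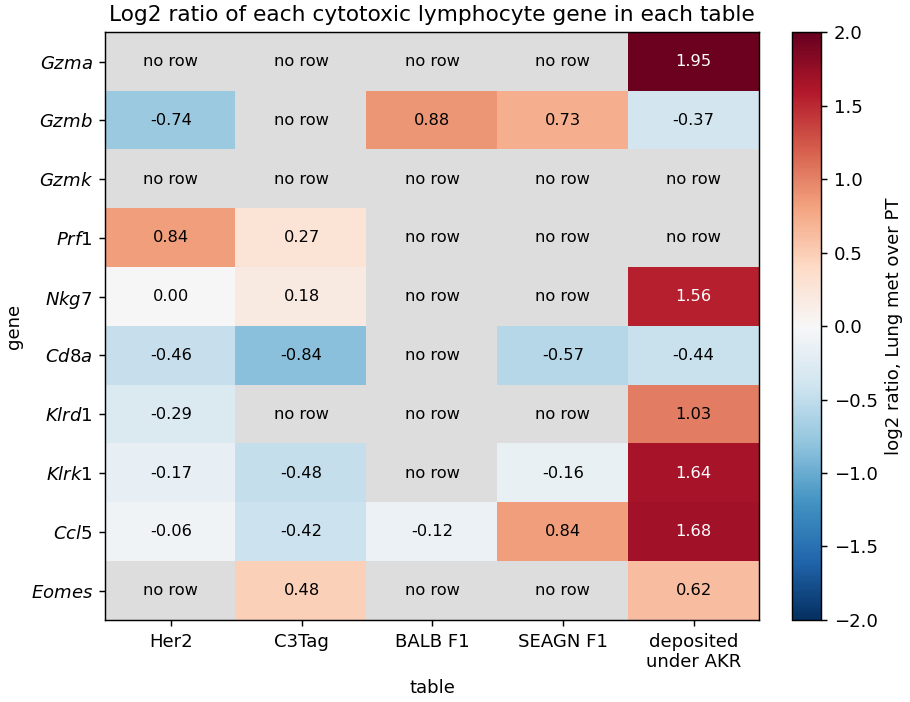
Log2 ratio of the Lung met over the PT group mean for each gene (rows) and table (columns), red where Lung met was higher, blue where it was lower and grey where the table has no row. Cd8a is blue in all 4 tables that list it, and the 5 values past 2-fold, from 1.03 to 1.95, are all in the AKR-named column.

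Counted over the 10 genes, 14 of the 27 values were above 0 and 13 below, and 22 lay within 2-fold. No value was 2-fold lower in Lung met in any table. In Her2, 0 of 7 genes were at least 2-fold higher and 0 of 7 at least 2-fold lower, against 2.38% and 1.43% of all 18208 genes with values. In C3Tag, 0 of 6 passed in either direction, against 7.42% higher and 1.7% lower of all 19320 genes. BALB F1 had 0 of 2 and SEAGN F1 0 of 4 past 2-fold, where 2.26% and 2.86% of all genes were higher and 2.4% and 3.22% lower. With shares that low over all genes, a count of 0 among so few genes does not set them apart.

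Gzma, Nkg7, Klrd1, Klrk1 and Ccl5, 5 of the 8 genes with values in the AKR-named table, were at least 2-fold higher in Lung met, against 7.31% of all 17829 genes, and 0 of 8 were 2-fold lower, against 1.73%. Klrd1 stood just past the limit and lay just under it with a pseudocount of 1 added to both means. All 5 had low levels for that table, whose all-gene median level was 488. Their means of both tissues were 48 for Gzma, 32.8 for Nkg7, 12.5 for Klrd1, 18.7 for Klrk1 and 70.3 for Ccl5. The median log2 ratio of the 8 genes with values was 1.29 in that table, where the median over all genes was 0.0072. In the other tables the median of the listed genes was -0.17 in Her2, -0.12 in C3Tag, 0.38 in BALB F1 and 0.29 in SEAGN F1, and the all-gene medians lay between -0.0013 and 0.03. With no value per animal, whether any of these medians exceeds the spread between animals is unknown.

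The other killing machinery was covered unevenly. Of 7 further granzymes none had a row in Her2, BALB F1 or SEAGN F1, and none of the 7 serine proteases listed for the neighbourhood of Gzmb (Ctsg, Cma1 and mast cell proteases) had a row in any table. Gzmm, a granzyme of NK cells, had means of 18.5 in PT and 13.5 in Lung met in C3Tag (log2 ratio -0.46). Gzmc, which lies in the cluster of Gzmb, had a mean of 58.8 in PT and 17 in Lung met in the AKR-named table, a log2 ratio of -1.79. Gzmm had 6.13 and 7.19 in that table, a log2 ratio of 0.23. Gzmb and Gzmc, of the same cluster, were lower there in Lung met, and Gzma was higher.

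Genes for loading, releasing and restraining the granules are also used by other cells, and were higher more often than lower in Lung met. Of 12 such genes, 2 of 12 were at least 2-fold higher in Her2, 4 of 12 in C3Tag and 3 of 12 in BALB F1. The counts were 1 of 11 in SEAGN F1 and 3 of 12 in the AKR-named table. Over all genes the shares higher were 2.38%, 7.42%, 2.26%, 2.86% and 7.31% in the same order. Only Rab27a in SEAGN F1 was 2-fold lower (log2 ratio -1.24), against 3.22% of all genes there. Serpinb6b, a member of the intracellular serpins, was past 2-fold in all 5 tables, with log2 ratios of 1.21 in Her2, 3.52 in C3Tag, 1.22 in BALB F1, 2.37 in SEAGN F1 and 1.95 in the AKR-named table. Srgn, the proteoglycan that packs granzymes and is abundant in many blood cells, had log2 ratios of 2.11, 1.13, 1.53, 0.92 and 1.44 in the same order. In Her2 its mean was 848 in PT and 3656 in Lung met. In C3Tag, Rab27a (log2 ratio 1.48) and Ctsc (1.02, named after its value was seen) were also past 2-fold, as was Unc13d in BALB F1 (1.36). Stx11, a syntaxin of granule release, passed 2-fold in the AKR-named table, from 54.6 to 115. The median of the list was 0.08 in Her2, 0.73 in C3Tag, 0.27 in BALB F1, 0.10 in SEAGN F1 and 0.48 in the AKR-named table.

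Receptors of NK and T cells beyond the 10 genes also varied by table. Of 19 listed, 12 had values in the AKR-named table, with a median log2 ratio of 0.97. Of these 12 receptors, 6 were at least 2-fold higher in Lung met, against 7.31% of all genes. Among those with a mean of both tissues of at least 10, the highest 3 were Klrb1c, which encodes NK1.1 (7.55 in PT, 25.1 in Lung met, log2 ratio 1.74), Cd244a (log2 ratio 1.54) and Il18rap (log2 ratio 1.37). In Her2, 1 of 12 was 2-fold higher, against 2.38% of all genes, and the median of the receptors was -0.07. Medians were 0.54 in C3Tag, 0.21 in BALB F1 and 0.69 in SEAGN F1. C3Tag had 2 of 12 higher and 1 of 12 lower, against 7.42% and 1.7% of all genes. BALB F1 had 1 of 6 higher, against 2.26%, and SEAGN F1 3 of 8 higher, against 2.86%. Outside the naming rule and picked after their values were seen, these include S1pr5 in Her2 (log2 ratio 1.86), Cd7 in BALB F1 (1.25) and SEAGN F1 (1.27), and Cxcr3 in SEAGN F1 (1.24) and the AKR-named table (1.43), each with a mean of both tissues under 10. Il18rap, a chain of the interleukin 18 receptor also found on neutrophils, had its highest log2 ratio in C3Tag, 3.02 (83.5 in PT, 679 in Lung met), and 1.39 in SEAGN F1. Ncr1, Klrc1, Klrc2, Klre1 and Klrg1, further receptors of the list, had no row in any of the 5 tables.

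NKG2D needs an adaptor and a ligand to act. Hcst, which encodes its adaptor DAP10, had means of 7 in PT and 25.5 in Lung met in the AKR-named table (log2 ratio 1.87), the same direction as Klrk1, and 17.9 and 15.8 in Her2 (log2 ratio -0.18). Tyrobp, the adaptor DAP12 that myeloid cells also use, had log2 ratios of 0.75 in the AKR-named table and 0.77 in C3Tag. Among the ligands, Raet1d in C3Tag had means of 23.9 in PT and 295 in Lung met (log2 ratio 3.62) and H60b 12.6 and 66.1 (log2 ratio 2.39). The ligand Ulbp1, named for C3Tag after its values were seen, had higher means than either, 1540 and 1626, and differed little (log2 ratio 0.08). Klrk1 itself was lower in Lung met in C3Tag. Raet1d was slightly lower in Lung met in Her2 (log2 ratio -0.18) and in the AKR-named table (-0.32). Of 11 ligands and adaptors, 4 had values in Her2, C3Tag and the AKR-named table and 1 in each of the others.

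Ccr1, a receptor for Ccl5, was higher in Lung met in C3Tag, from 331 to 751 (log2 ratio 1.18), and in the AKR-named table, from 290.3 to 654 (log2 ratio 1.17). Among death ligands and effector cytokines, Ccl3 in the AKR-named table was the single value past 2-fold, from 22.3 to 55 (log2 ratio 1.30). It was 1 of 6 genes with values there, where 7.31% of all genes were at least 2-fold higher. Counts past 2-fold were 0 of 6 in Her2 and in C3Tag, 0 of 5 in BALB F1 and 0 of 3 in SEAGN F1. In the same order, 2.38%, 7.42%, 2.26% and 2.86% of all genes were higher, and 1.43%, 1.7%, 2.4% and 3.22% lower. With so few genes, these counts do not set the list apart. Xcl1, a chemokine of NK cells and CD8 T cells, was 43.1 in PT and 27.5 in Lung met in Her2 (log2 ratio -0.65). Ifng had no row in any table.

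**Figure D3:**
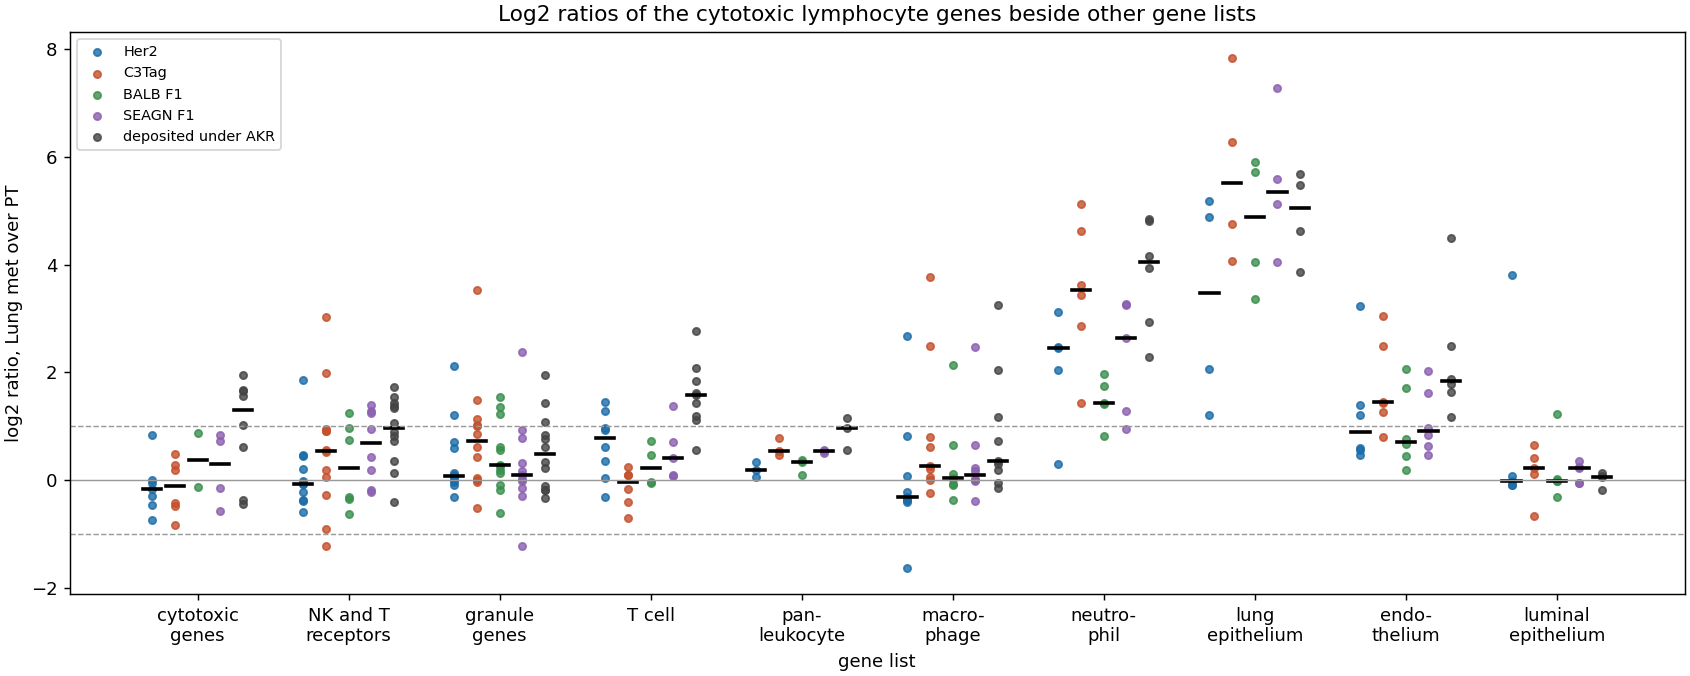
Log2 ratio of Lung met over PT (y axis) for each gene (point) of the 10 cytotoxic genes and of 9 other lists (x axis), colored by table, with a black bar at the list's median and dashed lines at 2-fold. Medians of the cytotoxic genes, NK and T receptors, and T cell, pan-leukocyte, macrophage, neutrophil and endothelial markers are highest in the AKR-named table. Those of granule genes, lung epithelium and luminal epithelium are highest in C3Tag. Lung epithelium, neutrophil, endothelial and pan-leukocyte markers lie above 0 in every table.

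Markers of other cells also differed between PT and Lung met, to unlike degrees, and their part in the values above was not tested. For the marker counts below, all-gene shares at least 2-fold higher were 2.38% in Her2, 7.42% in C3Tag and 2.26% in BALB F1. They were 2.86% in SEAGN F1 and 7.31% in the AKR-named table. Of the T cell markers in the AKR-named table, 8 of 9 with values were at least 2-fold higher in Lung met, with a median log2 ratio of 1.57 and a summed level of 234 in PT and 618 in Lung met. Cd3d, the defining marker, had a row there alone, with a log2 ratio of 1.84, and Cd3e had 1.19. In Her2 the T cell markers summed to 240 in PT and 314 in Lung met, with 2 of 8 past 2-fold (Cd247 and Cd2, named after their values were seen), and Cd3e had no row. In C3Tag they summed to 445 and 358 with 0 of 6 past 2-fold, and Cd3e had a log2 ratio of 0.09. In BALB F1 the sums were 53.2 and 59.6 (0 of 4 past 2-fold, Cd3e 0.72), and in SEAGN F1 43.5 and 59.9 (1 of 5 past 2-fold, Cd3e 1.37).

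Ptprc, which encodes CD45 and is found on all nucleated blood cells, had means of 511 in PT and 998 in Lung met in the AKR-named table, a log2 ratio of 0.96. Its log2 ratio was 0.33 in Her2, 0.55 in C3Tag, 0.09 in BALB F1 and 0.54 in SEAGN F1. The 3 pan-leukocyte markers together summed to 1680 in PT and 3051 in Lung met in the AKR-named table. Of the other tables, C3Tag gave 2930 and 4554, Her2 2029 and 2305, SEAGN F1 785 and 1127, and BALB F1 741 and 882. Neutrophil markers were higher in Lung met in every table, with 6 of 6 past 2-fold in C3Tag and the AKR-named table and 4 of 5 in the others, and S100a8 had log2 ratios from 0.94 to 2.93. Macrophage markers had medians between -0.32 and 0.36, and Adgre1 had log2 ratios between -0.32 and 0.22. Their sums in PT and Lung met were 22415 and 26727 in Her2, 17053 and 44481 in C3Tag, 2549.9 and 4974 in BALB F1, 3216 and 7929.8 in SEAGN F1, and 23180.3 and 64298 in the AKR-named table. Named after their values were seen, Lyz2 had log2 ratios of 0.81, 2.48, 2.14, 2.46 and 2.04 in the same order, Siglecf of 2.67 in Her2, 3.77 in C3Tag and 3.25 in the AKR-named table, and Mrc1 of -1.64 in Her2. Lyz2 made up a large part of the macrophage sums in Her2, C3Tag, BALB F1 and SEAGN F1. Its mean went from 9759 in PT to 17142 in Lung met in Her2 and from 5556 to 31010.5 in C3Tag. In BALB F1 it went from 699 to 3074, and in SEAGN F1 from 1023 to 5643. These sums therefore do not stand for the macrophage markers as a set. The B cell markers had a row for 2 of 6 genes in C3Tag (67.8 in PT, 178 in Lung met, summed) and in the AKR-named table (11.2 and 81.1), and none elsewhere. Cd79a had a log2 ratio of 1.36 in C3Tag and no row in the AKR-named table.

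Markers of lung epithelium were higher in Lung met wherever they had values. Of 8 markers of lung epithelium, 4 had values (Sftpd, Ager, Hopx and Lamp3), and all 4 were at least 2-fold higher in Lung met in each table. Their sums in PT and Lung met were 1386 and 5714 in Her2, 218 and 14987 in C3Tag, 33.5 and 863 in BALB F1, 35.8 and 1683 in SEAGN F1, and 677 and 24775 in the AKR-named table. Sftpd was already at 1213 in PT of Her2. Sftpc, the defining marker, had no row in any table, nor had Sftpb, Sftpa1 and Scgb1a1. Endothelial markers, led by Pecam1, were at least 2-fold higher for 3 of 6 genes in Her2, 5 of 6 in C3Tag, 2 of 6 in BALB F1 and SEAGN F1 and 6 of 6 in the AKR-named table. Pecam1 had log2 ratios from 0.44 to 1.87. Of 7 mast cell and basophil markers, Kit and Hdc had values. Kit, which mammary epithelium also expresses, had log2 ratios between -0.23 and 0.51, and makes up most of the pair's sum. Hdc, named after its values were seen, had log2 ratios of 2.75 in Her2, 4.85 in C3Tag, 1.40 in BALB F1, 2.72 in SEAGN F1 and 4.71 in the AKR-named table. Epcam, the leading luminal epithelial marker, which lung epithelium also expresses, had log2 ratios between -0.68 (C3Tag) and 0.05.

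Set against Ptprc of the same table, the 10 genes looked different. The AKR-named median log2 ratio was 0.33 after subtracting that of Ptprc, and Gzma (0.99), Ccl5 (0.71), Klrk1 (0.68) and Nkg7 (0.59) remained above it. Klrd1 was then level with Ptprc (0.06), while Eomes (-0.35), Gzmb (-1.34) and Cd8a (-1.40) lay below. In the other tables the medians relative to Ptprc were -0.49 in Her2, -0.67 in C3Tag, 0.29 in BALB F1 and -0.25 in SEAGN F1. Cd8a lay below Ptprc in all 4 tables that list it, from -0.79 in Her2 to -1.40 in the AKR-named table. Gzmb was below Ptprc in Her2 (-1.07) and above it in BALB F1 (0.79) and SEAGN F1 (0.19). All 6 genes with values in C3Tag had lower log2 ratios than Ptprc, from -0.06 for Eomes to -1.39 for Cd8a.

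**Figure D4:**
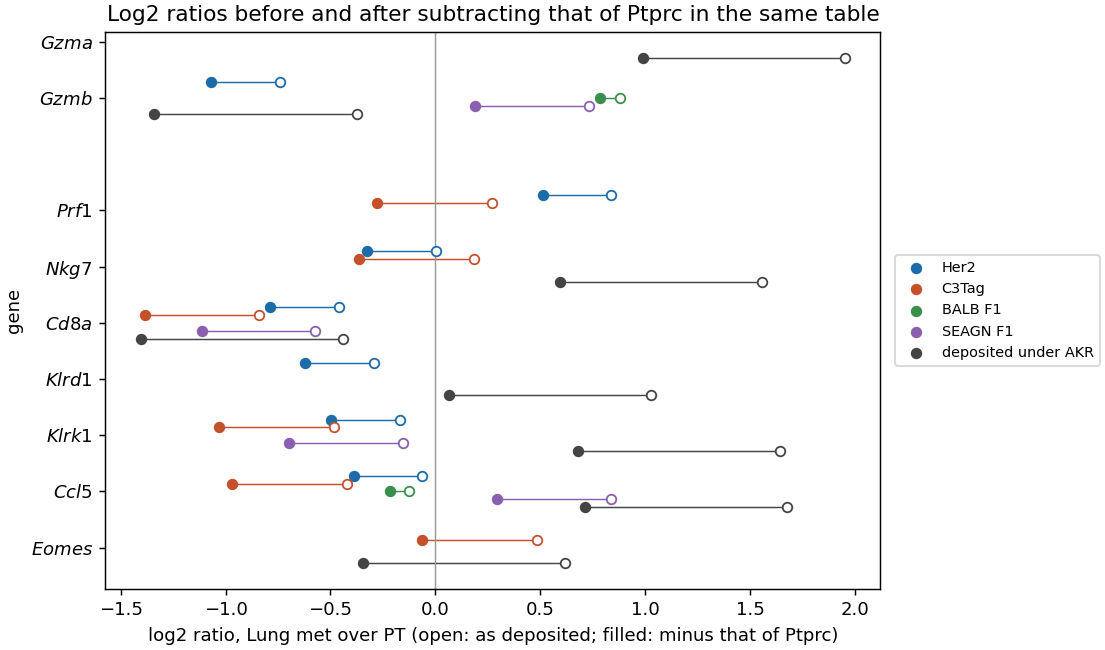
Log2 ratio of Lung met over PT for each gene (y axis) and table (color), as deposited (open circles) and after subtracting the log2 ratio of Ptprc in the same table (filled circles, joined by a line). Every value moves left, most in the AKR-named table, and Gzma, Nkg7, Klrk1 and Ccl5 of that table stay above 0.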

How the data were processed

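Per the labels, total RNA from PT and Lung met of 74 samples was made into stranded, ribosome-depleted libraries, whereas the methods describe mRNA libraries. In Partek Flow the authors aligned reads (STAR 2.7.8a and mm39 in the submitters' processing notes, mm9 and mm10 in the methods), summed them into gene counts and scaled these, the scaling being not given in the sources used here. For Lung met against PT the authors ran DESeq2 on PyMT-F1 models and Gene Specific Analysis on the others. The 5 tables used hold the deposited least-squares group mean of each tissue, treated as a signal, with each table normalized separately. Their columns of the authors' p-values, FDR, ratios and fold changes were not used, and the Myc table, which holds only p-values and FDR, was not analysed here. Sequencing depth is unknown, and because only group means were analysed, every value is without an interval. Groups were taken from sample titles.

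Rows with both means were kept, and log2 of Lung met over PT was computed with no filter and no pseudocount (Python 3.11.15, pandas 2.3.3, numpy 2.4.6; figures with matplotlib 3.10.9). No test was possible, and 2-fold was the limit for counting, with the share of all genes past it as background. The counting code returned the planted counts on simulated group means without noise, which checks the code only and says nothing about the reported counts. Named genes were the 10 members. In the other lists, genes past 2-fold in the same direction in at least 3 tables were named, and at most 3 per list and table with the largest log2 ratios at a mean of at least 10. Ptprc, Cd3e and the first gene of each marker list were also named, as were the 5 genes closest to the members. Members and lists were chosen with earlier results of these data known. Alternatives were a pseudocount of 1, centring on the all-gene median, a minimum mean of 10, subtraction of Ptprc and a fold of 1.5. Promoter sequence came from RefSeq (GRCm38.p6) and gene positions from GENCODE M21 (GRCm38), with no coordinate taken from the tables. The result for 1 listed gene is not reported here.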

Additional observations from a re-analysis of the deposited data

How the results depend on the processing

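Only group means were analysed, so no replicate could be left out, the error of each value is unknown, and low means (4 of 27 values under 10) are the least certain. The tables differ in scale, with all-gene medians from 124 to 488, so a limit of 10 is not equally strict in each. Klrd1 in the AKR-named table (12.5) and Prf1 in Her2 (11.5) pass it, though low for their tables. No paired analysis was possible because the tables hold group means only, although PT and Lung met came from the same animals. A value was counted as moved past 0.1 on the log2 scale and a count past 1.5 times. Centring on the all-gene median or a pseudocount of 1 moved none of the 15 medians and counts over the 10 genes. A minimum mean of 10 moved the median log2 ratio to 0.84 in SEAGN F1, where 1 gene was left, and to 1.56 in the AKR-named table. Subtracting Ptprc gave medians of -0.49 in Her2, -0.67 in C3Tag, -0.25 in SEAGN F1 (a change of sign) and 0.33 in the AKR-named table, and 5 of 27 single values changed sign. At a fold of 1.5 the genes higher in Lung met numbered 1 in Her2, 1 in BALB F1 and 2 in SEAGN F1, and those lower 1 in Her2 and 1 in C3Tag, where all-gene shares at that fold were 5.42% (Her2), 6.2% (BALB F1) and 7.11% (SEAGN F1) higher, and 3.62% (Her2) and 5.61% (C3Tag) lower.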

Other observations

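Transcription factors of killer and other T cells varied by table rather than together. Tcf7, a factor of naive and memory T cells that epithelium also expresses, had means of 136 in PT and 327 in Lung met in the AKR-named table (log2 ratio 1.27), and log2 ratios of 0.94 in Her2 and -0.49 in SEAGN F1. Bcl11b, needed for T cell identity and also active in mammary basal cells, was lower in Lung met in C3Tag (log2 ratio -1.41) and SEAGN F1 (-1.39) and higher in Her2 (0.67). Tox, which exhausted T cells express, stood at 17.3 in PT and 107 in Lung met in C3Tag, a log2 ratio of 2.63. Prdm1 had log2 ratios of 1.03 in C3Tag, 0.94 in BALB F1, 0.80 in SEAGN F1, 0.11 in Her2 and -0.27 in the AKR-named table. Of 3 inhibitory checkpoint genes with values in Her2, C3Tag and the AKR-named table, 0 passed 2-fold in any of these tables. Over all genes 2.38%, 7.42% and 7.31% were higher and 1.43%, 1.7% and 1.73% lower, so 0 of 3 does not set them apart. Lag3 was lower in Lung met in Her2 (log2 ratio -0.52) and C3Tag (-0.51) and higher in the AKR-named table (0.42), and Pdcd1 was higher in each (0.76, 0.83 and 0.52).

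Outside the lists, the 5 genes of 11734 whose log2 ratios over the 5 tables lay closest to the medians of the cytotoxic genes were Ccdc8, Slc4a11, Romo1, B2m and Foxp3, at Euclidean distances from 0.213 to 0.435. B2m, the light chain of MHC class I, had log2 ratios of -0.11 in Her2, -0.04 in C3Tag, 0.21 in BALB F1, 0.66 in SEAGN F1 and 1.36 in the AKR-named table. Foxp3, the factor of regulatory T cells, had 1.30 in the AKR-named table and between 0.04 and 0.11 in the others. The medians rest on different genes in each table, 2 of them in BALB F1, so this likeness is a description only.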
